A study of Mus musculus with 6 samples.

Results

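Natural killer (NK) cells were taken from lymph nodes of pregnant mice by the cell type name in the submitters' cell table, and 54 of 7300 distinct cells carried that name. Cells came from 7 dams mated to BALB/c males, given diphtheria toxin (DT) over the first 9 days of pregnancy and examined at embryonic day 9.5. Aire-DTR mice (4, numbered 4, 7, 8 and 36) carry a diphtheria toxin receptor named for Aire, a regulator that lets thymic epithelium and some peripheral cells display tissue antigens, and WT mice (3, numbered 1, 6 and 97) were given the same toxin without carrying that receptor. The cell table records the pregnancy of mouse 4 as resorbed and those of mice 7, 8 and 36 as IUGR. Each mouse gave uterine-draining (udLN) and brachial (brLN) lymph node cells, so there were 14 mouse-by-node samples. Mice 6 and 8 were in pool 1, mice 36 and 97 in pool 2 and mice 1, 4 and 7 in pool LN. Each mouse is 1 replicate, and the labels used here do not state the strain or age of the dams. For the sorted cells, the sample labels name CD45+ CD3+ and the series design names CD45+ alone.

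NK cells are innate lymphocytes that kill without a rearranged antigen receptor. They sense targets through activating receptors that signal through adaptor proteins such as those encoded by Tyrobp, Fcer1g and Hcst, are held back by inhibitory receptors for MHC class I, and kill by releasing perforin and granzymes. In mouse lymph nodes they are a small population that enters from blood and can release interferon gamma. They lack the surface CD3 complex that accompanies the T cell receptor, so cells with and without Cd3 transcripts were also described apart.

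One well of pool LN was present in 2 copies among the deposited cells. Its 2127 barcodes had identical counts, mouse, node and cell type in both copies, so 9427 deposited cells were 7300 distinct cells and 69 deposited NK cells were 54. Each distinct cell was counted once, a choice made after the data were seen. Other pairs of libraries shared 4 to 32 barcodes, none with identical counts, and 4 of those shared barcodes involved an NK cell. NK cells held 1315 to 9560 unique molecular identifiers (UMIs, counted transcripts), with a median of 3640, against medians of 5102 in 351 cells named CD8+ Mem T and 2677 in 73 cells named gdT. No doublet caller was run.

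The name was checked against Ncr1 (the activating receptor NKp46), Nkg7 (a granule protein of cytotoxic lymphocytes) and Ccl5 (a chemokine of cytotoxic and memory lymphocytes). Levels below are CPM, UMIs of a gene per 1000000 UMIs, summed over the cells of a mouse. Ncr1 in NK cells was 874 CPM in Aire-DTR mouse 4, 837 in mouse 7, 481 in mouse 8 and 709 in mouse 36, and 784 in WT mouse 1, 1955 in mouse 6 and 957 in mouse 97. In CD8+ Mem T cells Ncr1 was 0 to 17.0 CPM per mouse, and in gdT cells it was 0 in each mouse. Summed over the NK-named cells of a mouse, Ncr1 was thus above both T cell classes in every mouse. It did not mark all of these cells. Of the 15 with 5 or more Cd3 UMIs, described further on, 2 held Ncr1. Levels and ratios below cover all NK-named cells, those 15 included, unless cells are given apart. Nkg7 ranged from 3810 to 4431 CPM over the 7 mice in NK cells, from 1105 to 1542 in CD8+ Mem T cells and from 872 to 2022 in gdT cells. Ccl5 ranged from 11980 to 30690 CPM in NK cells, from 2055 to 3990 in CD8+ Mem T cells and from 2617 to 6655 in gdT cells. Nkg7 and Ccl5 were thus present in all 3 classes, with NK levels above both others in 7 of 7 mice. How the submitters named the cells is not known here and these genes may have been used for it, so the differences between classes are descriptions with no test.

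Ncr1 was also compared as a share of cells at equal depth. After each cell was thinned to 1000 UMIs, Ncr1 was found in 57.4% of NK cells, and in 0% of CD8+ Mem T and 0% of gdT cells. At full depth it was found in 74.1% of NK cells, 0.285% of CD8+ Mem T cells and 0% of 2267 B cells. Thinning left out no NK cell, 3 CD8+ Mem T cells and 2 gdT cells.

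Promoter sequence is shown for the marker genes Ncr1 and Nkg7, for Gzma, which lies highest in the ranking against both T cell classes, and for Cd3e, which together with Cd3d and Cd3g divides the NK-named cells further on. Each is the 250 bases before the RefSeq start on GRCm38.p6, 5′ to 3′ in gene direction: Ncr1 at chr7:4337465-4337714 on the plus strand, Nkg7 at chr7:43436888-43437137 on the plus strand, Gzma at chr13:113100982-113101231 on the minus strand and Cd3e at chr9:45009612-45009861 on the minus strand. Capitals mark the letters AGGTGT (core of T-box sites, the family of Eomes and Tbx21), TGTGGT (core of RUNX sites) and GGAAGT (core of ETS sites) or their reverse complements.
Ncr1: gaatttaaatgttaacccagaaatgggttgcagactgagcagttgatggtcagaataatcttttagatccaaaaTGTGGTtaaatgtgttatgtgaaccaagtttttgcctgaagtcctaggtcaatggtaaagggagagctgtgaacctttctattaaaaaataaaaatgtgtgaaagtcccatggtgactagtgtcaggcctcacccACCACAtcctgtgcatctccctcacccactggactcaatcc
Nkg7: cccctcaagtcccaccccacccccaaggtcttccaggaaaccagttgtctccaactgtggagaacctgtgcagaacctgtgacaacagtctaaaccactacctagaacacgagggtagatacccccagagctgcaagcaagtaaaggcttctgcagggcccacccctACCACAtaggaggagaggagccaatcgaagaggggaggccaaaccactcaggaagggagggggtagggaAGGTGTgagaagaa
Gzma: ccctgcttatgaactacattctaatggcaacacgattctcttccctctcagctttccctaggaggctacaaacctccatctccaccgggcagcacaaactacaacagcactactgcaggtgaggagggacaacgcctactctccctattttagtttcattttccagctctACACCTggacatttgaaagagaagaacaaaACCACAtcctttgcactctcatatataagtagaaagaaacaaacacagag
Cd3e: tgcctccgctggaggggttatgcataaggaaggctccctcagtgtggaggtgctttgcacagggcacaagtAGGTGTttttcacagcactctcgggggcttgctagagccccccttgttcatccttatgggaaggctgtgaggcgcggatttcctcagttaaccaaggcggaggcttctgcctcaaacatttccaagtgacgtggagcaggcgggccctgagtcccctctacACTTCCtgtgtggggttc
Ncr1 had 2 windows, and the one with the lower start is shown and counted. The RUNX letters were matched 2 times in that Ncr1 window, 1 time each in Nkg7 and Gzma, and 0 times in Cd3e. The T-box letters were matched 1 time each in Nkg7, Gzma and Cd3e and 0 times in Ncr1, and the ETS letters 1 time in Cd3e alone of the 4. Of 32817 windows of the same length in the table, 14.0% held the RUNX letters, 11.8% the T-box letters and 19.7% the ETS letters. Matches are descriptions of the letters, not sites.

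**Figure D1:**
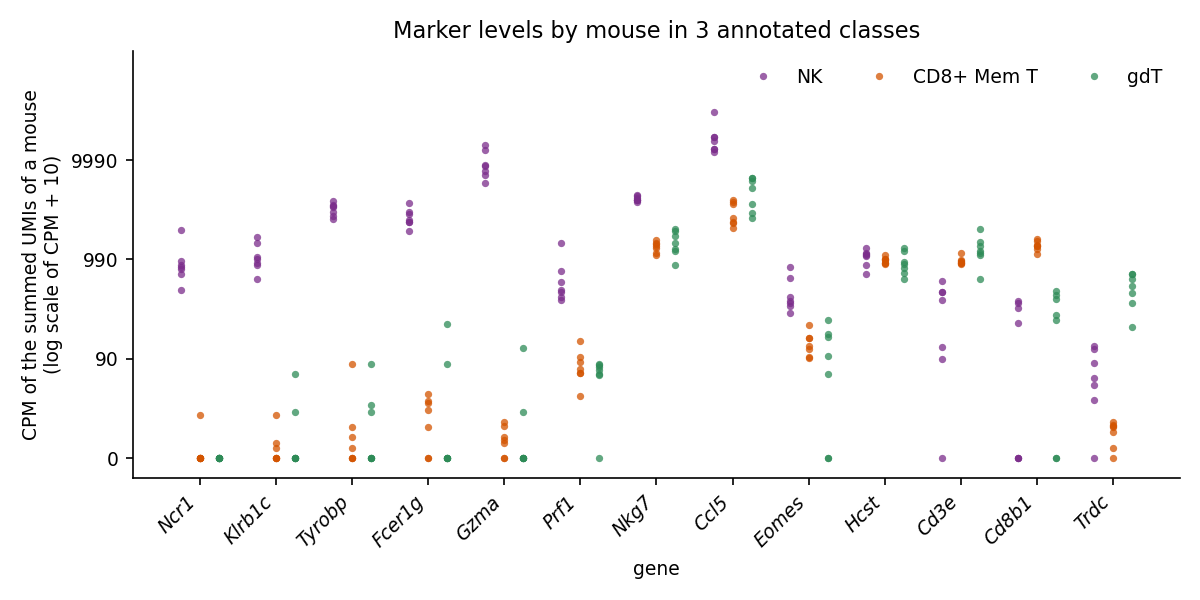
Level of 13 genes (x axis) as CPM of the summed UMIs of 1 mouse (y axis, log scale of CPM + 10), with 1 point per mouse for NK, CD8+ Mem T and gdT cells. For Ncr1, Klrb1c, Tyrobp, Fcer1g and Gzma the 7 NK points lie above all points of the other classes, while Hcst points overlap and Cd3e points of NK cells lie below those of CD8+ Mem T cells.

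Identity genes of NK cells were described from a list of 20, all with UMIs in NK cells. Of these, 19 had at least 50 CPM, and all 19 were at least 2-fold above both CD8+ Mem T and gdT cells. Over all 3032 genes at 50 CPM or more in NK cells, 17.2% were that far above CD8+ Mem T and 14.5% that far above gdT cells. Klrb1c, which encodes the NK1.1 antigen in strains that carry it, was at 1021 CPM in NK cells, 2.85 in CD8+ Mem T and 14.1 in gdT cells. The exception below 50 CPM was Ncam1, with 1 UMI in 1 cell. Itga2, the integrin subunit known as DX5 or CD49b, had UMIs in 20.4% of NK cells and 0.855% of CD8+ Mem T cells. Genes of other lineages also passed the 2-fold rule. Of 7 B cell genes at 50 CPM or more in NK cells, 6 were that far above each T cell class. Of 3 erythroid genes, 3 were so above CD8+ Mem T and 2 above gdT cells, and of 3 myeloid genes 1 above each. Passing the rule therefore does not by itself mark NK identity. In NK cells the identity list summed to 44290 CPM and the B cell list to 1576.

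Among genes with a UMI in at least 20% of NK cells, the 12 with the highest ratio of CPM (10 CPM added to both) to CD8+ Mem T cells were Gzma, Tyrobp, Fcer1g, Klrb1c, Ncr1, Gzmb, Klri2, Klrk1, Klrb1a, Klrb1f, Klra8 and Klra7. Gzma, the serine protease granzyme A, was at 8773 CPM against 6.83 (ratio 522). Klra7, the last of them, was at 685 against 23.3 (ratio 20.9). Against gdT cells, 9 of these 12 returned, joined by Klra4, Irf8 (a transcription factor of myeloid and NK cells) and Ccr2 (a chemokine receptor for exit from marrow and entry into inflamed tissue), and ratios ran from 26.6 for Ccr2 to 453 for Gzma. Klr receptor genes were 7 of the 12 against CD8+ Mem T and 5 of the 12 against gdT cells. All 18 Klr genes of the lists lie on chromosome 6 within 8.12 Mb, from Klrg1 to Klra1.

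Id3, a regulator that restrains E proteins, was lowest against both classes, at 9.32 CPM in NK cells, 176 in CD8+ Mem T cells and 323 in gdT cells. Its relative Id2 was highest in NK cells, with 923, 87.7 and 93.7 CPM. Lowest against CD8+ Mem T cells after Id3 were Cd6, Sit1, Cd8b1, Nsg2, Rgs10, Cd8a, Ms4a4c, Mtap, Ass1, Jaml and Trac. Lowest against gdT cells after Id3 were Trdc, Pik3ip1, Mtap, Dpp4, St6gal1, Tgtp1, Nsg2, Tgtp2, Themis, Gm8369 and Cd6. Trdc, the constant gene of the delta chain, was at 60.6 CPM in NK cells and 567 in gdT cells.

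Activating receptors numbered 13 in the matrix, all at 50 CPM or more in NK cells, and 10 were at least 2-fold above each of the T cell classes. Over all genes, 17.2% were that far above CD8+ Mem T and 14.5% above gdT cells. Klrk1, the receptor NKG2D for stress-induced ligands, was at 844 CPM in NK, 18.8 in CD8+ Mem T and 42.2 in gdT cells. Cd2, an adhesion receptor shared with T cells, was at 415, 334 and 403 CPM, and Cd226 and Crtam were the other members within 2-fold of CD8+ Mem T cells. Fcgr3, the Fc receptor that triggers antibody-dependent killing, had 11 UMIs in 8 NK cells, and 0.569 CPM in CD8+ Mem T cells.

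Adaptors divided by use. Tyrobp (DAP12) was at 3226 CPM in NK cells, 11.95 in CD8+ Mem T cells and 14.1 in gdT cells, and Fcer1g, the Fc receptor gamma chain, at 2606, 15.9 and 37.5 CPM. Hcst (DAP10, the partner of NKG2D) was at 1044, 976 and 927 CPM, the NK level being above CD8+ Mem T in 5 of 7 mice and above gdT in 4 of 7. Tyrobp and Hcst are neighbours on chromosome 7 (30413760 to 30417585 on the plus strand and 30417712 to 30419854 on the minus strand, GENCODE M21 on GRCm38). Cd247, the zeta chain used by Fc and T cell receptors, was at 242, 206 and 332 CPM, and Lck at 755, 771 and 834 CPM. Of 12 adaptor genes at 50 CPM or more in NK cells, 4 were at least 2-fold above CD8+ Mem T and 6 above gdT cells. The shares over all genes were 17.2% and 14.5%. In the other direction it was 0 of 8 for CD8+ Mem T and 1 of 8 for gdT cells, against 5.46% and 12.5%. The kinase Syk had 60.6 CPM in NK cells and 0 UMIs in both T cell classes.

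Inhibitory receptors included 16 in the matrix, 14 with UMIs in NK cells. Of 12 at 50 CPM or more, 11 were at least 2-fold above CD8+ Mem T and 10 above gdT cells, against 17.2% and 14.5% over all genes. Ly49 receptors, lectin-like receptors for MHC class I encoded by Klra genes, are known to be switched on in varied combinations among NK cells. Of 31 NK cells without Cd3 UMIs, 26 had a UMI of at least 1 of the 8 Klra genes in the matrix, 23 had at least 2 such genes, the median was 3 genes and the highest was 5. Of 23 NK cells with Cd3 UMIs, 17 had at least 1 such gene and 11 at least 2, with a median of 1 and a highest of 5. Klra4 was at 1133 CPM, Klra7 at 685 and Klra9 at 233 CPM over all NK cells. These genes are close relatives, and reads could be divided among copies, so single Klra levels are uncertain. Klrd1 (CD94), whose product pairs with NKG2 receptors, was at 611 CPM in NK, 209 in CD8+ Mem T and 215 in gdT cells. Tigit was at 135, 15.4 and 4.68 CPM. The checkpoint genes Pdcd1 and Havcr2 had 0 UMIs in 54 NK cells, which allows up to 5.56% of such cells to hold a UMI at this depth.

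The cytotoxic granule list held 14 genes in the matrix, 13 at 50 CPM or more in NK cells, and 10 of those were at least 2-fold above CD8+ Mem T and 9 above gdT cells. The shares over all genes were 17.2% and 14.5%. Prf1, the pore-former perforin, was at 569 CPM in NK cells, 72.9 in CD8+ Mem T and 65.6 in gdT cells. Gzmb (granzyme B) was at 718, 5.69 and 4.68 CPM. Serpinb9, a protease inhibitor that shields killers from granzyme B, was at 182, 13.7 and 14.1 CPM. Gzmm, granzyme M, ran the other way with 32.6 CPM in NK and 113 CPM in CD8+ Mem T cells. Ctsw (909, 590 and 520 CPM), Cst7 (336, 258 and 295 CPM) and Lamp1 (140, 104 and 164 CPM) were within 2-fold of both T cell classes, and Srgn (900, 448 and 614 CPM) of gdT cells.

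Secreted factors, 10 in the matrix, had 6 members at 50 CPM or more in NK cells, all 6 at least 2-fold above both T cell classes. Over all genes, 17.2% were that far above CD8+ Mem T and 14.5% above gdT cells. Xcl1, a chemokine that attracts cross-presenting dendritic cells, was at 494 CPM in NK, 154 in CD8+ Mem T and 42.2 in gdT cells. Ccl4 was at 168, 63.8 and 14.1 CPM. Ifng, interferon gamma, had 13 UMIs in 8 of 54 NK cells, against 2.28 CPM in CD8+ Mem T cells and 0 UMIs in gdT cells. Tnf had 2 UMIs in 1 NK cell.

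Transcription factors and cytokine receptors followed in part. Eomes, the T-box factor of conventional NK cells, was at 434 CPM in NK, 127 in CD8+ Mem T and 112 in gdT cells, and Tbx21 (T-bet) at 168, 43.8 and 46.8 CPM. Tcf7 and Lef1, which maintain naive and memory T cells, were at 135 and 131 CPM in NK cells and at 248 and 250 CPM in CD8+ Mem T cells. Il2rb, the beta chain through which interleukin 15 signals, was at 1067, 359 and 347 CPM. Il18rap was at 261, 31.9 and 42.2 CPM, and Il7r was at 205, 488 and 408 CPM. The Il7r level differed within the NK-named cells, with 70.6 CPM in the 31 cells without Cd3 UMIs and 480 CPM in the 15 cells with 5 or more, and Tcf7 was at 88.3 and 212 CPM in the same cells. Of 15 transcription factors at 50 CPM or more in NK cells, 7 were at least 2-fold above CD8+ Mem T and 5 above gdT cells. The shares over all genes were 17.2% and 14.5%. In the other direction, 1 of 12 factors at 50 CPM or more in CD8+ Mem T cells was at least 2-fold above NK cells. In gdT cells it was 4 of 14, and the shares over all genes were 5.46% and 12.5%.

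Genes of the mature stage, named CD11b high, and of the immature stage, named CD27 high, were both present over all 54 NK-named cells. Of 11 mature-stage genes at 50 CPM or more in NK cells, 8 were at least 2-fold above each T cell class, among them Cma1 (149 CPM, with 0 UMIs in CD8+ Mem T and gdT cells), S1pr5 (117 CPM), the receptor NK cells use to leave nodes and marrow, and Klrg1 (103 CPM). Of 10 immature-stage genes at that level, 1 was that far above CD8+ Mem T and 2 above gdT cells. Over all genes these shares were 17.2% and 14.5%. In the other direction, 1 of 5 mature-stage genes at 50 CPM or more in each T cell class was at least 2-fold above NK cells. Of immature-stage genes, 4 of 10 at 50 CPM or more in CD8+ Mem T cells were at least 2-fold above NK cells there, and 5 of 8 in gdT cells, where the shares over all genes were 5.46% of 2328 and 12.5% of 2850. In the 31 cells without Cd3 UMIs and the 15 with 5 or more, Cd27 was at 53.0 and 226 CPM. Ltb was at 185 and 1087 CPM, Cxcr3 at 53.0 and 183.5 CPM and Thy1 at 380 and 748 CPM. Xcl1 (538.5 and 352.8 CPM) and Ctla2a (203 and 183.5 CPM) went the other way. Among the 31 NK cells without Cd3 UMIs, 21 held a UMI of S1pr5, Klrg1, Cma1, Cx3cr1 or Itgam, 19 held one of Cd27, Xcl1, Cxcr3 or Ctla2a, 10 held both kinds and 1 held neither. These genes are a part of each list, and the counts depend on which members were taken. In the same cells the other mature-stage members were found in 5 (Ly6c2) to 28 (Emp3) cells. The other immature-stage members were found in 1 (Kit) to 16 (Thy1) cells, so the counts do not divide the cells by stage. Of 9 genes of type 1 innate lymphoid and resident NK cells in the matrix, 3 were at 50 CPM or more: Il7r, Cd160 (27 UMIs in 16 cells) and Cxcr6 (20 UMIs in 5 cells, all with 5 or more Cd3 UMIs). Itga1 of that list had 1 UMI in 1 cell. Of genes of other innate lymphoid cells, Gata3 had 9 UMIs, Kit 7 UMIs in 2 cells and Rora 3 UMIs, and none was at 50 CPM or more. Of 11 cell cycle genes, Hmgb2 (65 UMIs in 37 cells) and Pcna (22 UMIs in 15 cells) were at 50 CPM or more. Both were at least 2-fold above CD8+ Mem T cells, and 1 of the 2 was that far above gdT cells. The mitotic genes Mki67, Top2a, Ccnb1 and Cdk1 had 1 UMI each.

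Cd3 transcripts divided the NK-named cells. Of 54 cells, 31 had no UMI of Cd3d, Cd3e or Cd3g and 23 had at least 1, 42.6% (95% Wilson interval 30.3 to 55.8%). Such UMIs were also found in cells named otherwise than T cells: 9.22% of B cells (median 2261 UMIs) had one, against 99.4% of CD8+ Mem T cells. The source of Cd3 UMIs in B cells was not tested. Among 73 cells named Myeloid, 41.1% had a Cd3 UMI, close to the NK share. At 1000 UMIs per cell, the shares were 38.9% of NK cells, 6.30% of B cells and 39.3% of Myeloid cells. Why B and Myeloid cells differed was not tested. NK cells with and without Cd3 UMIs had similar depth, with medians of 3701 and 3619 UMIs. By mouse, 5 of 9 NK cells of Aire-DTR mouse 4, 5 of 8 of mouse 7, 2 of 6 of mouse 8 and 1 of 7 of mouse 36 had Cd3 UMIs, and 5 of 11 of WT mouse 1, 0 of 3 of mouse 6 and 5 of 10 of mouse 97. Aire-DTR mice had a mean share of 41.4% ± 22.0 (SD, n = 4), and the WT mean was 31.8% ± 27.7 (SD, n = 3), a difference of 9.60 percentage points (exact two-sided permutation p = 0.571, the smallest possible being 0.0571). The difference was smaller than the spread within either group, and without WT mouse 6 it was -6.31 points. Within pools, Aire-DTR minus WT was 33.3 points in pool 1 (1 mouse each), -35.7 in pool 2 (1 mouse each) and 13.6 in pool LN (2 mice and 1 mouse), so the direction differed between pools.

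NK marker UMIs differed with the number of Cd3 UMIs. In 8 cells it was 1 to 4, and in 15 cells it was 6 to 49 with a median of 12. Every one of the 31 cells without Cd3 UMIs and of the 8 cells with 1 to 4 held at least 10 UMIs of Ncr1, Tyrobp, Fcer1g and Gzma together, with medians of 78 and 66.5. Of the 15 cells with 5 or more Cd3 UMIs, 11 held fewer than 10 and the median was 3. In those 11 cells these markers do not bear out the NK name. Ncr1 itself was found in 30 of 31 cells without Cd3 UMIs, 8 of 8 with 1 to 4 and 2 of 15 with 5 or more. The boundary of 5 Cd3 UMIs was set after these values were seen. In B cells 4.72% held 5 or more Cd3 UMIs, and in Myeloid cells 32.9%, against 27.8% of NK cells.

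**Figure D2:**
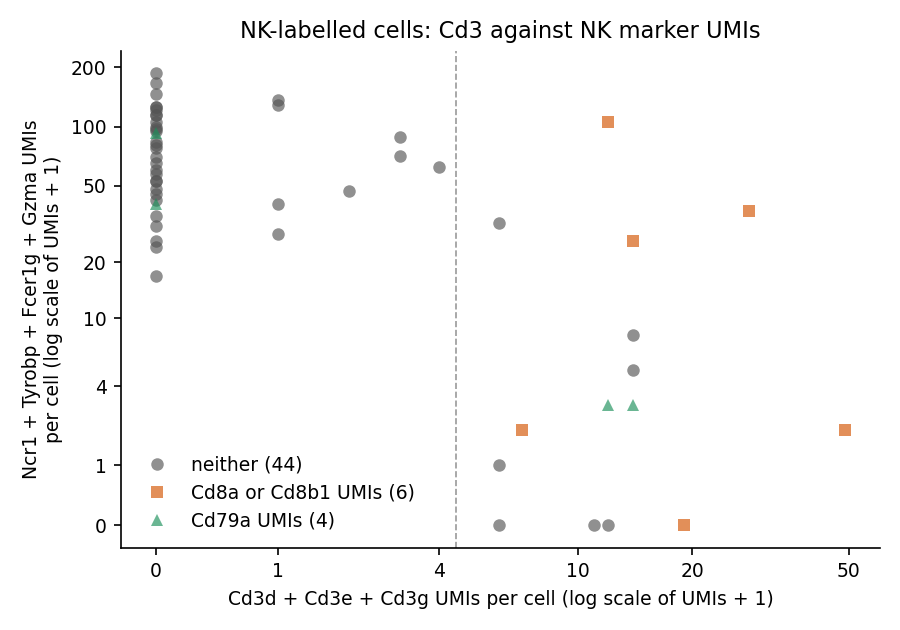
Each of the 54 NK-named cells by its Cd3d, Cd3e and Cd3g UMIs (x axis) and its Ncr1, Tyrobp, Fcer1g and Gzma UMIs (y axis), both on a log scale of UMIs + 1, with cells that hold Cd8 or Cd79a UMIs marked. The 39 cells left of the dashed line, at fewer than 5 Cd3 UMIs, all lie at 17 or more marker UMIs, and 11 of the 15 cells to its right lie under 10.

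Klrb1c was found in 13 of the 15 cells with 5 or more Cd3 UMIs and Klrk1 in 13, against 0.855% and 5.41% of CD8+ Mem T cells and 4.11% and 9.59% of gdT cells. Id2 was found in 12 of 15 and Xcl1 in 11 of 15. Their summed levels were lower than in cells without Cd3 UMIs for Klrb1c (480 against 1351 CPM), Klrk1 (565 against 1015 CPM) and Id2 (819 against 1121 CPM), values given with no test. Genes found beside them were Ltb in 14, Il7r in 11 and Ly6c2 (a surface antigen of memory CD8 T cells and monocytes) in 10 of 15. The lists used here place Ltb, Il7r and Ly6c2 among NK stage genes. Of T cell receptor complex genes, Lat was found in 11, Trbc2 in 6 and Trac in 5. Trbc1 and Cd5 were found in 4 each, Cd6 in 2 and Cd8b1 in 6. Trdc was found in 2, Zbtb16, the factor PLZF of innate-like T cells, in 2, and Cd4 in 0 of 15. Among the 31 cells without Cd3 UMIs, Ltb was found in 9, Il7r in 3, Ly6c2 in 5, Lat in 13 and Trac in 2. Trbc2, Cd5, Cd6 and Cd8b1 were found in 0 of them. Receptor transcripts were not limited to cells with Cd3 UMIs: Trdc was found in 7 and Trbc1 in 6 of those 31 cells.

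**Figure D3:**
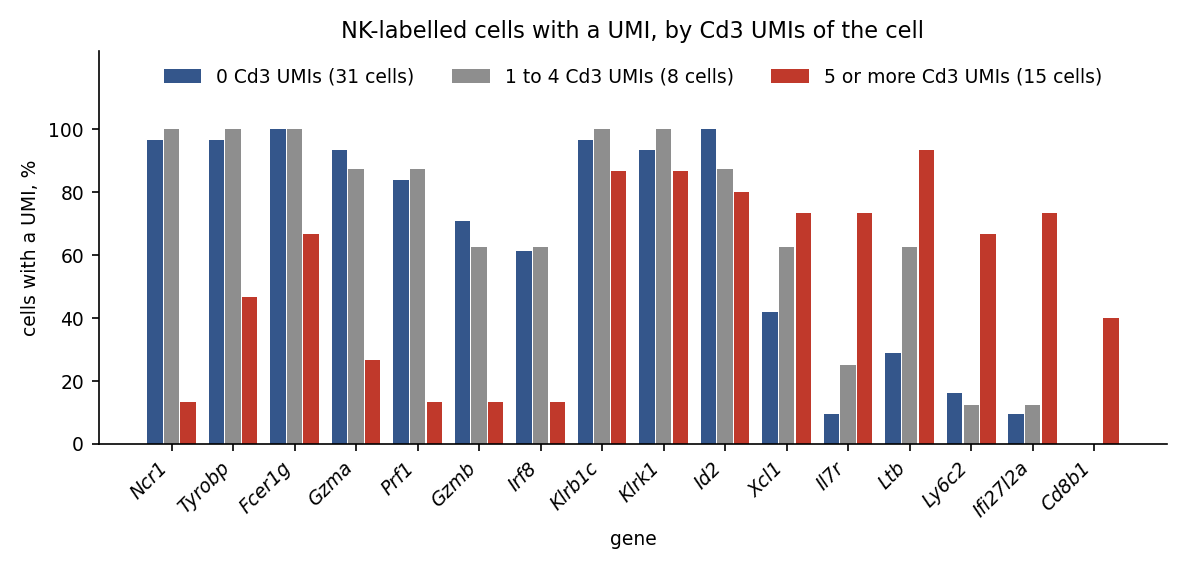
Percent of NK-named cells with a UMI of each of 16 genes (bars), for 31 cells with 0, 8 cells with 1 to 4 and 15 cells with 5 or more Cd3 UMIs. Ncr1, Gzma, Prf1, Gzmb and Irf8 bars are short only in the last kind, Klrb1c, Klrk1 and Id2 bars are high in all 3, and Cd8b1 occurs only in the last.

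Some cells held transcripts of several lineages. Of the 15 cells with 5 or more Cd3 UMIs, 4 also held at least 10 of the marker UMIs above. Their median depth was 6622 UMIs, against 3627 for the other 11, and 3 of the 4 held Cd8a or Cd8b1 UMIs. In all, 6 NK cells held Cd8a or Cd8b1 UMIs, all with 5 or more Cd3 UMIs, and 4 held Cd79a UMIs, a B cell receptor gene, with 15, 10, 1 and 1 UMIs. The part of doublets in these values was not tested.

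Genes were then tested between NK cells with and without Cd3 UMIs within mice. Mice 1, 4, 7 and 97 had at least 3 cells of each kind, which gave 8 sums, 38 cells and 557 genes tested, the Cd3 genes that defined the kinds being left out. Among them 22 genes passed (3.95%), 12 higher (2.15%) and 10 lower (1.8%) in cells with Cd3 UMIs. Perforin and granzyme genes, Ncr1 and the adaptor genes Fcer1g and Tyrobp were among the lower genes, and Ltb, Cd8b1 and 10 ribosomal protein genes were higher.

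Prf1 was at 1079 CPM in cells without and 118 in cells with Cd3 UMIs of mouse 4, 969 and 180 in mouse 7, 1119 and 127 in mouse 1, and 845 and 47.3 in mouse 97. All 4 mice had the lower value in cells with Cd3 UMIs, and the ranges did not overlap (log2 difference -3.01, SE 0.40, adjusted p 0.000975, edgeR quasi-likelihood test with Benjamini-Hochberg adjustment). Gzma went from 16820 to 2904 CPM in mouse 4, from 10580 to 3324 in mouse 7, from 14550 to 3842 in mouse 1 and from 12860 to 6143 in mouse 97 (log2 difference -1.75, SE 0.20, adjusted p 0.000257 by edgeR). The ranges of Gzma did not overlap either. Gzmb (-2.33, SE 0.41) and Nkg7 (-1.21, SE 0.18) were the other granule genes that fell, so 4 of 8 granule genes tested were lower and 0 higher.

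Ncr1 went from 1619 to 549 CPM in mouse 4, from 1535 to 449 in mouse 7, from 1221 to 422 in mouse 1 and from 1429 to 614 in mouse 97 (log2 difference -1.47, SE 0.28, adjusted p 0.0067 by edgeR). Of 8 adaptor genes tested, 2 fell: Fcer1g (-1.64, SE 0.27), a chain through which the Ncr1 product signals, and Tyrobp (-1.50, SE 0.32), the partner of other activating receptors. Cd247, the other chain that serves the Ncr1 product, did not pass (0.38, SE 0.52, adjusted p 0.773 by edgeR). Tyrobp went from 8456 to 1845 CPM in mouse 4, from 3958 to 3189 in mouse 7, from 4883 to 591 in mouse 1 and from 4677 to 2363 in mouse 97, so the drop was small in mouse 7. Receptor genes Klrb1f (-2.51, SE 0.56) and Klra4 (-1.98, SE 0.27) also fell, which makes 2 of 6 activating and 1 of 4 inhibitory receptors lower with none higher. Ptma, which encodes prothymosin alpha, completed the 10 (-0.82, SE 0.21). Of 17 identity genes tested, 7 were lower and 0 higher, with a median log2 difference of -1.19 against -0.04 over all genes tested. Klrb1c, Ccl5, Hcst and Il2rb did not pass, and Klrb1c was lower in cells with Cd3 UMIs in 3 of 4 mice.

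Cd8b1 had 0 UMIs in cells without Cd3 UMIs of all 4 mice and 378 to 676 CPM in cells with them. Those UMIs came from 6 cells. Ltb, which encodes lymphotoxin beta of naive and resting lymphocytes, rose from 360 to 981 CPM in mouse 4, from 242 to 1033 in mouse 7, from 203 to 887 in mouse 1 and from 64.96 to 662 in mouse 97 (log2 difference 2.09, SE 0.40, adjusted p 0.0067 by edgeR). The ribosomal protein genes were Rplp0, Rpl22, Rps19, Rps20, Rpl35a, Rpl32, Rpsa, Rpl13, Rps15a and Rpl37a. Most of the other ribosomal protein genes tested were also higher in cells with Cd3 UMIs without passing, and a few were lower. Rplp0, for example, was at 3598 and 6868 CPM in mouse 4 and 4417 and 8837 in mouse 97 (log2 difference 0.86, SE 0.15).

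**Figure D4:**
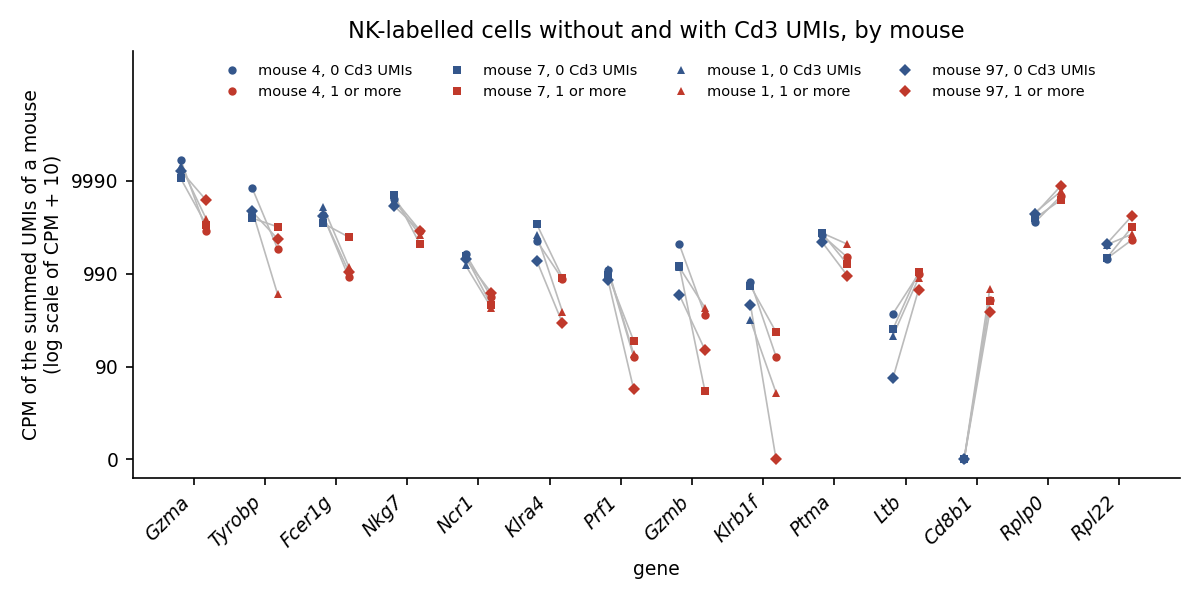
CPM of the summed UMIs (y axis, log scale of CPM + 10) of 14 genes in NK-named cells with 0 (blue) and with 1 or more (red) Cd3 UMIs, joined by mouse for mice 4, 7, 1 and 97. Lines of Gzma to Ptma fall in each of the 4 mice, and those of Ltb, Cd8b1, Rplp0 and Rpl22 rise in each.

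Without the 10 cells that held Cd8a, Cd8b1 or Cd79a UMIs, 3 mice, 24 cells and 328 genes remained and 0 genes passed in edgeR (32 at an unadjusted p below 0.05). DESeq2 called 9 of 557 genes, all among the 22. From cells thinned to 1000 UMIs, 9 of 126 genes passed, all 9 lower and 0 higher. With mouse 4 left out 37 genes passed, and with mouse 97 left out 34. B cell markers in cells with Cd3 UMIs summed to 89.8 to 4238 CPM per mouse over 6 mice (7 of 9 markers with UMIs), and in cells without to 89.95 to 9338 CPM over 7 mice (8 of 9). Their part in the differences was not tested.

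NK shares were compared between the genotypes in each node. In brLN, NK cells were 5 of 784 cells of Aire-DTR mouse 4, 6 of 1060 of mouse 7, 0 of 290 of mouse 8 and 7 of 972 of mouse 36, and 6 of 745 of WT mouse 1, 1 of 254 of mouse 6 and 9 of 882 of mouse 97. The means were 0.481% ± 0.327 (SD, n = 4) and 0.740% ± 0.319 (SD, n = 3), with overlapping ranges (exact two-sided permutation p = 0.4). The 0 of 290 cells allows a share of up to 1.03%. The log2 difference was -0.54 (SE 0.52, adjusted p 0.455 over 9 classes by edgeR with pool as a term).

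In udLN, NK cells were 4 of 711 cells of Aire-DTR mouse 4, 2 of 331 of mouse 7, 6 of 313 of mouse 8 and 0 of 347 of mouse 36, and 5 of 411 of WT mouse 1, 2 of 152 of mouse 6 and 1 of 48 of mouse 97. Mouse 8 had the highest share of the Aire-DTR mice, 1.92%, and the 0 of 347 cells of mouse 36 allows up to 0.865%. The means were 0.771% ± 0.812 (SD, n = 4) and 1.54% ± 0.474 (SD, n = 3), again overlapping (exact two-sided permutation p = 0.171; log2 difference -0.68, SE 0.77, adjusted p 0.800 by edgeR). With both nodes summed the shares were 0.676% ± 0.215 and 0.922% ± 0.170 (SD, n = 4 and n = 3, exact two-sided permutation p = 0.171).

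**Figure D5:**
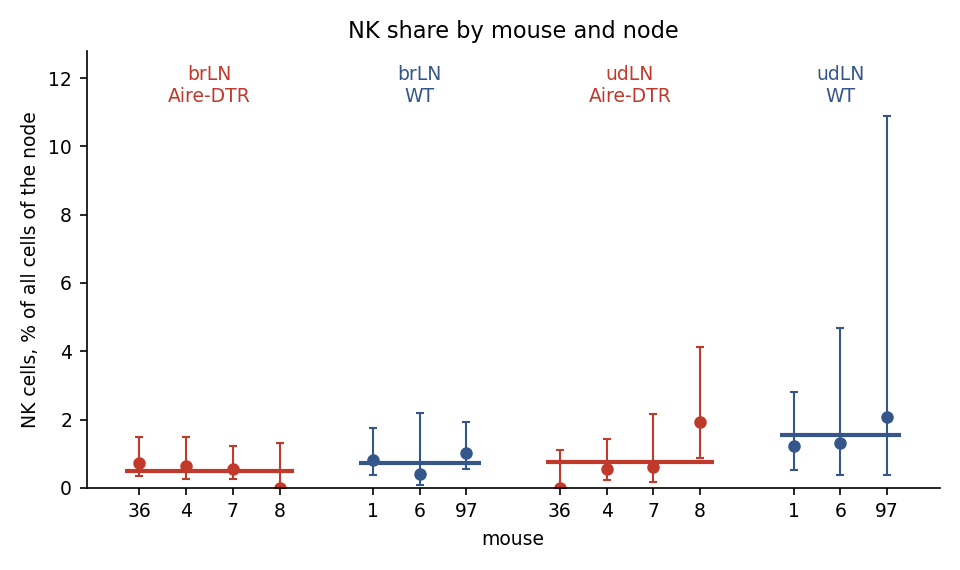
NK cells as a percent of all cells of a node (y axis) for each mouse (x axis), in brLN and udLN of Aire-DTR (red) and WT (blue) mice, with 95% Wilson intervals and the group mean as a line. Group means lie between 0.481% and 1.54%, and the intervals of all mice of a node overlap.

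Node and interaction gave no call either. Over 7 mice the mean share was 1.10% in udLN and 0.592% in brLN (exact two-sided sign-flip permutation p = 0.172, n = 7). The log2 difference with mouse as a block was 0.44 (SE 0.53, adjusted p 0.629 by edgeR), and the genotype effect in udLN minus that in brLN was -0.68 (SE 1.16, adjusted p 0.739 by edgeR). By pool, NK cells were 9 of 1009 cells in pool 1, 17 of 2249 in pool 2 and 28 of 4042 in pool LN. A change in these shares could come from NK cells or from the other classes, which cannot be told apart.

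No gene passed between the genotypes in NK cells. Over 7 mice with sums of 3 to 11 cells and 15855 to 43345 UMIs, 0 of 1131 genes passed in edgeR (0%), with 43 at an unadjusted p below 0.05, and 0 in DESeq2, with 7. With 1 mouse left out, 5 genes passed without mouse 1, 3 without mouse 6, and 1 each without mouse 8 and without mouse 97. None of the 18 identity genes tested passed over all mice, and their median log2 difference was -0.16 against 0.01 over all genes tested. In the 31 cells without Cd3 UMIs, Gzma was at 16820, 10580, 7211 and 16230 CPM in Aire-DTR mice 4, 7, 8 and 36, and at 14550, 12680 and 12860 in WT mice 1, 6 and 97. Xcl1 in these cells was at 630, 808, 104 and 102 CPM, and at 458, 820 and 1169. Both genes overlapped between genotypes, and in these cells alone 0 of 512 genes passed in edgeR (27 at an unadjusted p below 0.05).

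The 5 genes of smallest p, all with an adjusted p of 0.565 or 0.903 by edgeR, were Gm20594, Hbb-bs, Cd74, Hsd11b1 and Acap1. Cd74, the invariant chain of MHC class II in B and myeloid cells, was at 1585, 0, 4327 and 88.6 CPM in Aire-DTR mice 4, 7, 8 and 36 and at 46.1, 0 and 164 in WT mice 1, 6 and 97. Hbb-bs, a beta globin gene of red cells, was at 0, 0, 10620 and 177 CPM, and at 0, 63.1 and 328. Mouse 8 held the highest value of both genes, and 2 other Aire-DTR mice were within the WT range for Cd74. B cell markers summed to 173 to 7452 CPM per mouse in Aire-DTR and 126 to 438 in WT mice, and erythroid markers to 0 to 12540 and 0 to 465 CPM, with Alas2 at 0. Their part in the genotype values was not tested.

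Hsd11b1, which encodes an enzyme that regenerates active glucocorticoid, was at 164, 231, 80.1 and 177 CPM in Aire-DTR mice 4, 7, 8 and 36 and at 531, 631 and 246 in WT mice 1, 6 and 97. The log2 difference was -1.48 (SE 0.41, adjusted p 0.565 by edgeR). Gm20594, a predicted gene, was at 437, 606, 681 and 576 CPM and at 1638, 1072 and 985. Acap1, which encodes a trafficking protein that acts on Arf6, was at 109, 57.7, 120 and 44.3 CPM and at 231, 252 and 438. These 3 genes were chosen for their p, and none of the 3 passed across genes.

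Between nodes, only mice 1 (WT) and 4 (Aire-DTR) had at least 3 NK cells in both, so 4 sums of 4 to 6 cells entered. In edgeR 4 of 689 genes passed (0.581%), and 0 in DESeq2 (8 at an unadjusted p below 0.05). With so few sums, the SE and adjusted p rest mostly on variance estimates shared across genes, not on replication over mice. Eomes was at 709 CPM in brLN and 45.1 in udLN of mouse 1, and at 551 and 148 in mouse 4 (log2 difference -2.68, SE 0.59, adjusted p 0.00652). Klra8, the activating Ly49H receptor, was at 661 and 135 CPM in mouse 1 and at 429 and 49.3 in mouse 4 (-2.47, SE 0.66). Ifngr1, a chain of the interferon gamma receptor, was at 803 and 225 CPM, and at 674 and 148 (-1.94, SE 0.52). These 3 genes had 1 to 17 UMIs per sum. Cd8b1, the 1 gene that was higher in udLN, had 16 UMIs in 1 udLN cell of mouse 1, 13 in 1 udLN cell of mouse 4 and 0 in brLN. The T cell receptor list had a median log2 difference of 0.98 over 4 genes tested and the identity list -1.08 over 17, against -0.03 over all genes tested. Cells with 5 or more Cd3 UMIs held 17.5% of the UMIs in brLN and 67.4% in udLN of mouse 1, and 49.8% and 41.2% in mouse 4. Their part in the node differences was not tested. Without cells that held Cd8a, Cd8b1 or Cd79a UMIs, 0 of 388 genes passed in edgeR (28 at an unadjusted p below 0.05), and with both copies of the duplicated well kept, 0 of 847 (43).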

How the data were processed

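Single-cell 3′ UMI counts of lymph node cells were used as the authors deposited them, as 1 genes-by-cells count matrix with a cell table that gives mouse, node, genotype and cell type. The submitters' processing notes name Seurat, Scanpy 1.7.0, bustools 0.40.0, kallisto 0.46.1 and the build GRCm38. How hashtags were assigned, cells filtered, doublets handled and types named is not given in the sources used here, so their effect on the counts is unknown. The wells mix mice, so each cell's mouse and genotype came from the cell table. Uterine cells of pools 1 and 2 were not analysed here.

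Each distinct cell was counted once. Counts were summed per mouse over NK cells (sums of at least 3 cells) and tested with edgeR 4.0.16 (TMM, filterByExpr with min.count 5 and min.total.count 10, quasi-likelihood test, R 4.3.3), with an adjusted p threshold of 0.05 (Benjamini-Hochberg over all genes tested). The genotype fit had pool as a term, and node and Cd3 fits had mouse as a block, since both sums came from the same animal. SE is the log2 difference divided by the square root of F. Shares were tested as cell numbers over the 9 classes and by exact permutation of mice. DESeq2 1.42.0 was an alternative, beside others on filter, scaling, cells and mice. Scripts were tested on simulated data. Wilson intervals (95%) and limits of a count of 0 (3 counts) cover counting error only. Thinning used 1000 UMIs per cell and a fixed seed.

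Named genes were the 3 markers, members of fixed lists, the 12 highest and 12 lowest ratios to each T cell class among genes with a UMI in 20% of cells or more, and up to 10 genes per direction past each test, or the 5 of smallest p where fewer than 5 passed. Rps15a and Rpl37a fall outside the rule and were named to complete a count. The cells, lists and markers were chosen with earlier results of these data known.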

Additional observations from a re-analysis of the deposited data

Results flagged for a closer look

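With both nodes summed, NK cells made up 0.995% of the cells of Aire-DTR mouse 8 (6 of 603), apart from 0.531% in mouse 36, 0.602% in mouse 4 and 0.575% in mouse 7. The gap to the nearest mouse was a larger part of the group's range than Dixon's 95% critical value for 4 samples, and chance flags about 1 in 20 groups. That rule leaves out counting error. The 95% Wilson interval of mouse 8, 0.457 to 2.15%, held the shares of the other Aire-DTR mice. All 6 of these NK cells came from udLN. WT mice had 0.952% (mouse 1), 0.739% (mouse 6) and 1.08% (mouse 97), so the value of mouse 8 lay within the WT range.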

How the results depend on the processing

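No alternative gave an NK share a call: log2 differences ranged from -0.85 to -0.38 for genotype in brLN (16 alternatives, p 0.0752 to 0.801), from -1.62 to -0.25 in udLN (15), from 0.05 to 0.79 between nodes (15) and from -1.46 to -0.11 for the interaction (14). Without the replicate block on mouse the node difference was 0.37. The genotype difference in the share of cells with Cd3 UMIs ranged from -6.31 (without mouse 6) to 18.7 points over 11 alternatives. Genes called between genotypes numbered 8 with no filter on low counts and 3 with sums of 5 or more cells, and 0 to 5 with 1 mouse left out (5 without mouse 1, 3 without mouse 6, 1 without mouse 8, 1 without mouse 97). Hbb-bs reversed to -0.91 without mouse 6, whose sum is also the one removed by the minimum of 5 cells (-0.91), and was 7.17 without mouse 97. Between nodes, 4 genes became 0 with DESeq2, with min.count 10, with cells as deposited and without cells that held Cd8 or Cd79a UMIs, and 1 without the replicate block. Node fits with sums of 5 or more cells or with 1 mouse left out could not be made. For cells with against without Cd3 UMIs, 22 genes became 9 with DESeq2, 68 with no filter, 42 with min.count 10, 43 without the replicate block, 9 from thinned cells (0 higher and 9 lower of 126 tested, 5 of them among the 22), 0 without cells that held Cd8 or Cd79a UMIs, 34 for at least 5 Cd3 UMIs against none, and 20 to 37 with 1 mouse left out (37 without mouse 4, 34 without mouse 97). The cause of these changes was not tested. With 3 to 11 cells per mouse, genes of low level could not be tested. The alternatives on cells as deposited, on Cd8 or Cd79a UMIs and on 5 Cd3 UMIs were chosen after seeing the data.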

Other observations

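NK cells of Aire-DTR mouse 36 (7 cells, all from brLN) differed from those of the other mice in single Ly49 genes, an observation made after the values were seen and not tested. Klra4 had 1 UMI there (44.3 CPM), against 24 to 62 UMIs in the other Aire-DTR mice and 22 to 60 in WT mice (739 to 1790 CPM). Klra7 had 0 UMIs in mouse 36, which allows up to 133 CPM, against 10 to 35 UMIs in each of the other mice (401 to 1261 CPM). Klri2, a lectin-like receptor of the same gene complex, had 0 UMIs there and 4 to 15 elsewhere. Klra8 (12 UMIs) and Klrb1c (38 UMIs) were present in the same cells, and the CD8+ Mem T cells of mouse 36 held 85 Klra4 UMIs. Klra genes are close relatives, so the division of reads among them is uncertain.

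Of 7 interferon response genes at 50 CPM or more in NK cells, 0 were at least 2-fold above CD8+ Mem T or gdT cells, where the shares over all genes were 17.2% and 14.5%. In the other direction, 1 of 7 at that level in CD8+ Mem T cells and 6 of 10 in gdT cells were at least 2-fold above NK cells, against 5.46% and 12.5% over all genes. With so few genes these counts are a description.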
